A study of Mus musculus with 33 samples.

Results

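A group of 10 genes that mark or build the trophoblast lineage was followed through RNA-seq of mouse ESCs, out of 55487 genes listed in the deposited tables. The 10 genes were chosen by name: the transcription factors Cdx2, Eomes, Elf5, Tfap2c, Gata3 and Ets2, the keratins Krt7, Krt8 and Krt18, and the steroidogenic enzyme gene Cyp11a1. All ESCs were of the C57BL/6 strain and were grown with feeder fibroblasts, from which they were separated by plating before use. The 33 libraries form 11 conditions of 3 libraries each. By the study's methods these were biological replicates, and for the triple mutant they came from separate Cre transfections, while the labels do not say how replicates of the other conditions were kept apart. The p-values measure the spread between these libraries.

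The conditions were single mutants of Hp1α, Hp1β and Hp1γ (labelled KO), the double mutants Hp1α/β, Hp1α/γ and Hp1β/γ (labelled DKO), the triple mutant Hp1α/β/γ (labelled TKO), 2 wild-type sets, here called A and B, the floxed line Setdb1 F/F, and Setdb1 Δ/Δ cells (labelled SETDB1FF and SETDB1KO). Hp1α, Hp1β and Hp1γ are the paralogous readers of methylated lysine 9 on histone H3, encoded by Cbx5, Cbx1 and Cbx3, and Setdb1 writes that mark. The mutants came from CRISPR/Cas9 editing followed by isolation of individual clones, so a genotype may carry features of its clone. The triple mutant was made by transfecting Cre into Hp1α/β Δ/Δ lines with a floxed Hp1γ, and Setdb1 Δ/Δ cells by Cre acting on the floxed Setdb1 line. The paper took triple mutant RNA a few days after Cre and reports apoptosis and cell-cycle arrest in these cells. Its single and double mutants were constitutive, so time since loss differs between them and the triple mutant. No library of the floxed Hp1γ cells before Cre was analysed here, so the triple mutant was set against wild-type set A, as in its deposited table, and against the constitutive Hp1α/β Δ/Δ ESCs. The deposited tables set Hp1α, Hp1β, Hp1γ and Hp1α/β mutants against set A, and Hp1α/γ and Hp1β/γ mutants against set B.

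The trophectoderm is the outer layer of the blastocyst and the source of the trophoblast cells of the placenta. Cdx2, Eomes, Elf5, Tfap2c and Gata3 are transcription factors of trophectoderm and trophoblast stem cells, Ets2 acts in trophoblast stem cell maintenance, and Krt8 and Krt18 pair into the intermediate filaments of simple epithelia, including trophectoderm. Krt7 is a further keratin of trophoblast, and Cyp11a1 makes pregnenolone from cholesterol, the opening step of steroid synthesis, in trophoblast giant cells among other cells. ESCs come from the inner cell mass and normally keep this program low.

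Across the Hp1 mutants, Krt8, Krt18 and Cdx2 separated the libraries by Hp1β. In all 12 libraries without Hp1β they lay above all 15 libraries of the Hp1 series that kept it, as did 0.232% of all genes considered. Cdx2 met the count requirement for this through the libraries without Hp1β alone. Libraries of the same genotype may share features of its clone and are not independent losses of Hp1β. The 3 keratins fell in Hp1α/γ Δ/Δ ESCs against set B, though Krt7 was not called against set A. Feeder fibroblast markers fell in the same comparison, and their part was not tested. The Hp1α and Hp1γ single mutants, which also keep Hp1β, had no keratin called. In Setdb1 Δ/Δ cells Krt8 fell while Krt18, its filament partner, did not. The triple mutant had the highest Gata3 of all conditions. Its Eomes fell against set A, by a change at the edge of the fold threshold, and Eomes also fell in Setdb1 Δ/Δ cells against Setdb1 F/F ESCs. In the single mutants Eomes was not called against set A.

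The sequences around the starts of Krt8, Krt18 and Cdx2 are shown because these 3 genes separated the libraries by Hp1β. Each run is the strand of the gene, 250 bases before to 50 bases after the RefSeq start (GRCm38.p6), with CpG dinucleotides in capitals. The Krt8 window is chr15:102004293-102004592 on the minus strand, the Krt18 window chr15:102027966-102028265 on the plus strand and the Cdx2 window chr5:147307200-147307499 on the minus strand.
Krt8: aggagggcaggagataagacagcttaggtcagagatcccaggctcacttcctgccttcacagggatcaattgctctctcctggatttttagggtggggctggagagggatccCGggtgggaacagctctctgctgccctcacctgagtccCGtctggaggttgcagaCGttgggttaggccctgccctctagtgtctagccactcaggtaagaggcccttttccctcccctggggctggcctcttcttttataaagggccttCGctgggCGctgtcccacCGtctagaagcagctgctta
Krt18: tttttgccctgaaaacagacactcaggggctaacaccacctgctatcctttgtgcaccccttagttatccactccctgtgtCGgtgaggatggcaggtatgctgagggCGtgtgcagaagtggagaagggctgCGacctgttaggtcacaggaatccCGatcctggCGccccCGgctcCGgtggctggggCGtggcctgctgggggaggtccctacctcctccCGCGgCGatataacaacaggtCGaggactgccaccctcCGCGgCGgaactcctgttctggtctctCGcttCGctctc
Cdx2: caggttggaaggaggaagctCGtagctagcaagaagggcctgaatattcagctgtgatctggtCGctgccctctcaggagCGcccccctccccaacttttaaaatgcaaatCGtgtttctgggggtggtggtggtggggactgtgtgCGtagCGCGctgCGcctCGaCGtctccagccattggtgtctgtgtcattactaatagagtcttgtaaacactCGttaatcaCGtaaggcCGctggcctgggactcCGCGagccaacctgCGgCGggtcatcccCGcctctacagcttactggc

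The 3 windows differ in CpG content. The Krt8 window holds 6 CpG dinucleotides, below the median of 7 over all 32851 windows of the table, while the Krt18 window holds 17 and the Cdx2 window 18. At least as many as in Krt18 were found in 31.4% of all windows and at least as many as in Cdx2 in 29.7%. The letters TATAAA, searched on both strands, occur in the Krt8 window and in 13.6% of all windows, but not in the Krt18 or Cdx2 window. Cdx2 holds CCAAT on one of the strands, as do 37.4% of all windows. GGGCGG, present in 35.7% of all windows, and TGANTCA, in 7.81%, occur in none of the 3. Among the other windows, those of Ets2, Gata3 and Krt7 were CpG-rich, with 30, 22 and 21 CpG dinucleotides, and each holds GGGCGG. Eomes has 10. Elf5 has 2 listed starts with 3 and 10, and Cyp11a1 2 with 7 and 1. Windows were available for 9 members. The windows were matched by symbol, and a match of letters is a description only.

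Krt8 (ENSMUSG00000049382) lies on chromosome 15 of GRCm38 from 101996698 to 102004482 on the minus strand, and Krt18 (ENSMUSG00000023043) from 102028180 to 102032027 on the plus strand. The genes point away from each other, with 23698 bases between their starts, and Krt7 (ENSMUSG00000023039) lies on the same chromosome from 101411043 to 101430313. Cdx2 (ENSMUSG00000029646) is on chromosome 5 from 147300805 to 147307270. Tfap2c (ENSMUSG00000028640), Gata3 (ENSMUSG00000015619) and Elf5 (ENSMUSG00000027186) are on chromosome 2, at 172549593 to 172558622, 9857078 to 9890034 and 103411688 to 103450989. Eomes (ENSMUSG00000032446) and Cyp11a1 (ENSMUSG00000032323) are on chromosome 9, at 118478212 to 118486132 and 58006411 to 58027023, and Ets2 (ENSMUSG00000022895) is on chromosome 16 from 95702075 to 95721051. All 10 are annotated as protein coding. The annotation places antisense genes over Eomes (Gm33460), Gata3 (Gm13256) and Krt7 (Gm671), and other genes over Gata3, Krt8 and Cyp11a1. Whether strand was used in counting is not given in the sources used here, so reads of such partners cannot be told apart. The pseudogene Krt8-ps had 4 counts in all 33 libraries together.

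Total counts per library ran from 17330936 to 25743149. Levels are given as CPM, counts scaled to a common library size, with all libraries scaled together by the TMM method of edgeR. Each targeted gene was lower in the libraries labelled as its mutants: Cbx5 had 85.4 to 276 CPM in libraries without Hp1α against 439 to 490 CPM in wild-type libraries, Cbx1 42.1 to 111 against 373 to 448 CPM, and Cbx3 59.2 to 101 against 157 to 199.8 CPM. Setdb1 had 67.7 to 71.6 CPM in Setdb1 Δ/Δ cells against 131 to 136 CPM in Setdb1 F/F ESCs. The second library of Hp1α/γ Δ/Δ ESCs stood apart from the other two, with an SD of log2 differences across genes of 0.61 and 0.58 where other pairs of libraries had 0.14 to 0.25, and the tests of the members and the list counts in this genotype are given with and without it. Summed CPM of the 7 pluripotency factors listed was at least 1067 in every library. The 10 feeder fibroblast markers had a sum of 28.1 to 29.9 CPM in libraries of set A, and of 48.7 to 57.7 CPM in those of set B. In bulk samples, fewer cells of a type and less RNA per cell cannot be told apart.

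The members spanned a wide range of levels. Compared per length, by the authors' TPM in wild-type set A, Krt18 (48.9 TPM) and Krt8 (44.2 TPM) were the highest. Tfap2c (16.4 TPM) and Ets2 (9.02 TPM) followed. Eomes had 2.90 TPM and Krt7 1.69 TPM, and Cyp11a1, Gata3, Elf5 and Cdx2 were all below 1 TPM, at 0.63, 0.407, 0.247 and 0.113 TPM. Of the members, 5 (Eomes, Tfap2c, Ets2, Krt8 and Krt18) had at least 10 counts in all 33 libraries. The other 5 had fewer in some: Krt7 reached 10 counts in 30 libraries, Cyp11a1 in 25, Gata3 in 23, Cdx2 in 14 and Elf5 in 5. Elf5 never had more than 17 counts and was at 0 in 5 libraries, where a count of 0 allows up to 3. For Elf5, Cdx2, Gata3 and Cyp11a1 small differences were therefore not detectable at this depth.

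**Figure D1:**
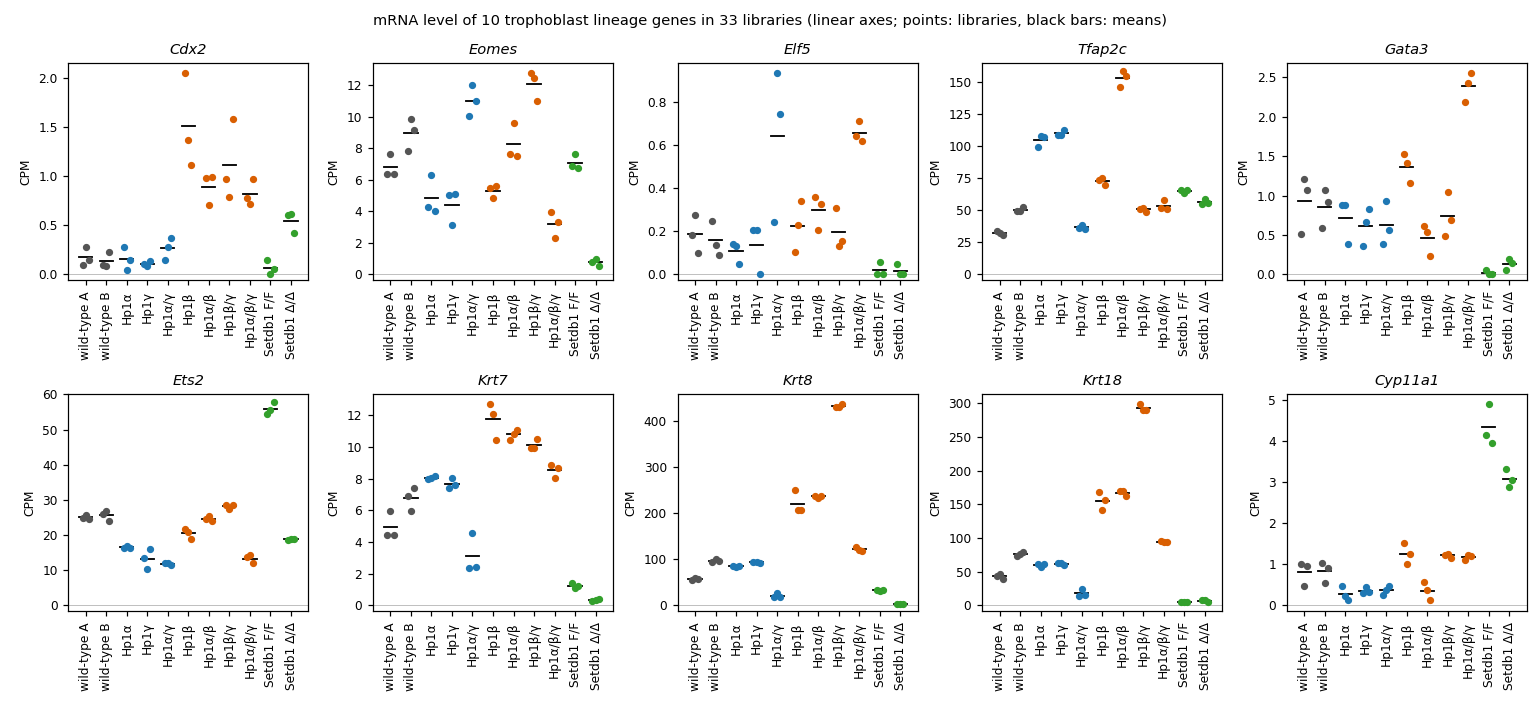
CPM (linear axes) of each of the 10 genes in each of the 33 libraries (points) by condition, with the mean of 3 libraries as a black bar; orange marks the 4 genotypes without Hp1β, blue the Hp1 mutants that keep it, grey wild-type and green the Setdb1 lines. Krt8, Krt18 and Cdx2 have every orange point above every blue and grey point, and Tfap2c has its highest mean, 153 CPM, in Hp1α/β Δ/Δ ESCs.

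The keratins were tested first in the single mutants. A gene was called at an adjusted p under 0.05 by the quasi-likelihood test of edgeR, adjusted after Benjamini and Hochberg over all genes tested, and an absolute log2 fold change over 1. In Hp1β Δ/Δ ESCs Krt8 had 249, 206 and 206 CPM against 56.2, 58.6 and 57.4 CPM in set A. Krt18 had 169, 141 and 156 CPM against 44, 46.4 and 39.9 CPM. Every mutant library was higher than every wild-type library for both genes. The log2 change was 1.92 for Krt8 (standard error, SE, 0.0676, adjusted p = 9.12e-09 by edgeR) and 1.82 for Krt18 (SE 0.072, adjusted p = 1.68e-08 by edgeR). Krt7, at 12.7, 12.1 and 10.4 CPM against 4.44, 5.98 and 4.46 CPM, rose by 1.22 on the log2 scale. With Cdx2 and Tfap2c, 5 of the 9 members tested rose and none fell, where 2.75% of all 15845 genes tested were called higher, 6.36% lower and 9.1% either way. Cdx2 passed the count filter through the mutant alone. The median log2 change of the tested members was 1.16, against −0.03 over all genes tested. An exact permutation test of 3 libraries against 3 cannot give a p under 0.1. Of the feeder fibroblast markers, 1 of 7 tested rose (Col1a1, 1.53 on the log2 scale), and their sum was 34.7 to 41.1 CPM, above the 28.1 to 29.9 CPM of set A. Their part in the keratin rise was not tested.

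Loss of Hp1α or Hp1γ alone gave smaller differences that depended on the wild-type set. Krt8 had 84.6 ± 0.721 CPM (SD, n = 3) in Hp1α Δ/Δ and 93.7 ± 1.2 CPM (SD, n = 3) in Hp1γ Δ/Δ ESCs, against 57.4 ± 1.24 CPM in set A and 97.3 ± 2.44 CPM in set B (SD, n = 3). Both mutants thus lay above set A, with log2 differences of 0.56 and 0.70, and below the mean of set B, with −0.20 and −0.05. Krt18 gave 0.47 and 0.50 against set A and −0.33 and −0.29 against set B. None of these passed the fold threshold. In Hp1α Δ/Δ ESCs 1 member rose (1.56% of all genes) and 1 fell (3.31%) of 8 tested, with 4.87% of all genes called either way, and in Hp1γ Δ/Δ ESCs 1 rose of 8 tested, with 2.04% of all genes called higher, 3.55% lower and 5.59% either way.

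Combining the loss of Hp1β with that of another paralog left the keratins high. In Hp1α/β Δ/Δ ESCs Krt8 had 238, 233 and 237 CPM and Krt18 170, 169 and 162 CPM, above all libraries of set A. The log2 fold changes were 2.04 (SE 0.0406) and 1.94 (SE 0.0519). In Hp1β/γ Δ/Δ ESCs the levels were the highest of the series. Krt8 had 429, 431 and 436 CPM against 95, 99.8 and 96.9 CPM in set B, and Krt18 299, 290.1 and 290.0 CPM against 73.1, 75.7 and 79.7 CPM. The log2 fold changes were 2.15 for Krt8 (SE 0.044, adjusted p = 6.64e-15 by edgeR) and 1.95 for Krt18 (SE 0.0483, adjusted p = 6.36e-14 by edgeR). Krt7 rose by 1.12 on the log2 scale in the Hp1α/β mutant, and in the Hp1β/γ mutant its difference of 0.58 did not pass the fold threshold (against set A it did, at 1.03). In all, 5 of 9 members tested rose in Hp1α/β Δ/Δ ESCs, where 2.96% of all genes were called higher, 5.19% lower and 8.15% either way. Feeder fibroblast markers also rose there, 5 of 8 tested with 1 lower, to a sum of 44.8 to 53.0 CPM, a range that meets that of set B, and their part in the keratin values was not tested. In Hp1β/γ Δ/Δ ESCs 3 of 9 rose, where 7.32% were called higher, 4.54% lower and 11.9% either way.

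In the Hp1β single and Hp1α/β mutants, Krt8 and Krt18 were called higher with either wild-type set. With set B in place of set A, Krt8 was higher by 1.17 in Hp1β Δ/Δ and by 1.28 in Hp1α/β Δ/Δ ESCs, and Krt18 by 1.01 and 1.13 (log2), all still called. Krt7 did not pass the fold threshold with set B, with 0.78 and 0.67. With Hp1α Δ/Δ ESCs as the control of Hp1α/β Δ/Δ ESCs, a comparison chosen after the data were seen, 3 of 8 members tested were called, where 4.2% of all genes were called either way, and Krt7 (0.43) and Tfap2c (0.56) were not.

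In Hp1α/γ Δ/Δ ESCs the direction was opposite. Krt8 had 18.3, 26.5 and 19.2 CPM against 95, 99.8 and 96.9 CPM in set B, a log2 change of −2.24 (SE 0.144, adjusted p = 7.72e-05 by edgeR). Krt18 had 14.6, 24.2 and 15.3 CPM against 73.1, 75.7 and 79.7 CPM, a log2 change of −2.13 (SE 0.185, adjusted p = 0.00019 by edgeR). Krt7 had 2.35, 4.57 and 2.43 CPM against 6.91, 5.96 and 7.41 CPM, a log2 change of −1.18. The library that stood apart, the second, had the highest value of all 3 keratins within the genotype, and no mutant library reached a library of set B. Without it the log2 fold changes were −2.38, −2.35 and −1.5. Of 8 members tested 5 fell, with Ets2 and Cyp11a1 beside the keratins, where 16.3% of all genes were called lower, 6.75% higher and 23.1% either way. Without the second library 5 of 8 also fell, where 16.8% of all genes were called lower and 6.56% higher. Against set A, Krt8 (−1.47) and Krt18 (−1.31) were still called and Krt7 (−0.72, adjusted p = 0.071 by edgeR) was not.

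Feeder fibroblast markers moved in the same comparison. Their sum was 10.03 to 11.3 CPM in the mutant against 48.7 to 57.7 CPM in set B, all 7 of the 10 that were tested fell, Twist2 and Postn were at 0 in the 3 libraries, and their part in the fall of the keratins was not tested. In the triple mutant these markers summed to 11.9 to 13.4 CPM, with 1 of 7 tested higher and 3 lower against set A. Hp1β/γ Δ/Δ ESCs had marker sums of 35.6 to 39.2 CPM, below those of set B, with none of 8 tested called. The part of feeder cells in the keratin values of these genotypes was not tested either. Lum was at 0 in all libraries of both wild-type sets. Of the 7 pluripotency factors, 4 rose in Hp1α/γ Δ/Δ ESCs, among them Nanog, from 202 to 588 CPM, and Tbx3, from 4.33 to 96.6 CPM. Their log2 changes were 1.5 and 4.44, and 1.46 and 4.53 without the second library. Without it 4 of 7 pluripotency factors were again called higher and 7 of 7 feeder markers lower.

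**Figure D2:**
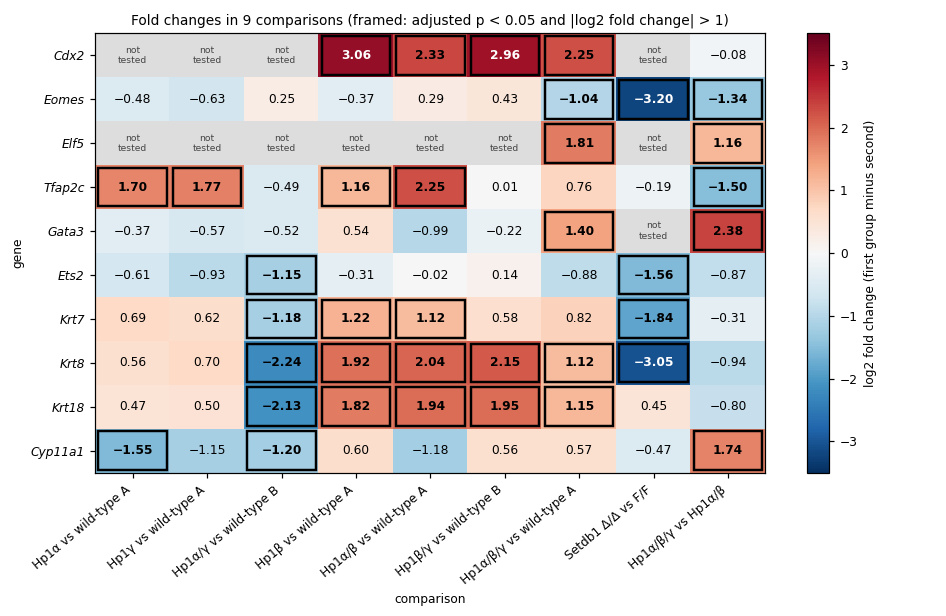
Log2 fold change (colour and number) of each of the 10 genes (rows) in 9 comparisons (columns), framed where a gene was called and grey where the count filter left it untested. The Krt8, Krt18 and Cdx2 rows are framed as higher in all 4 comparisons of genotypes without Hp1β with wild-type, and the Krt8 and Krt18 frames turn to lower for Hp1α/γ.

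None of the 3 tested genes beside Krt8 and Krt18 was called higher in the mutants of Hp1β, Hp1α/β and Hp1β/γ, where these rose. Neighbours were not examined in the triple mutant, where Krt8 and Krt18 also rose against set A. Within 100000 bases on either side, the keratin genes Krt4, Krt79 and Krt78 averaged 0.0454, 0.281 and 0.122 CPM over all libraries and were not tested. Eif4b, a translation initiation factor gene next to Krt18, had log2 differences of −0.17 in Hp1β Δ/Δ, −0.03 in Hp1α/β Δ/Δ and −0.20 in Hp1β/γ Δ/Δ ESCs. Tns2 and Spryd3, further along, stayed within 0.34 of 0 in these 3 comparisons. In Setdb1 Δ/Δ cells the neighbours did differ, Eif4b by −1.04 and Spryd3 by 1.26, with Tns2 at −0.94 (adjusted p = 0.000162 by edgeR), short of the fold threshold. In the Hp1α/γ mutant, where Krt8 and Krt18 fell, Tns2 was −0.94 (adjusted p = 0.000879 by edgeR), Eif4b −0.23 (adjusted p = 0.152) and Spryd3 0.44 (adjusted p = 0.0181), none of them called.

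Cdx2, the homeobox factor that drives trophectoderm specification, was close to absent in the libraries of the Hp1 series that kept Hp1β. It had 2, 6 and 3 counts in the libraries of set A and 2, 2 and 5 in those of set B. In Hp1β Δ/Δ ESCs it had 39, 30 and 23 counts, or 2.05, 1.37 and 1.12 CPM. Counts were 19, 17 and 21 in Hp1α/β Δ/Δ, 22, 18 and 41 in Hp1β/γ Δ/Δ and 18, 15 and 25 in the triple mutant. The lowest library without Hp1β had 0.705 CPM and the highest library of the Hp1 series with it 0.373 CPM, so the groups did not overlap. The log2 fold changes were 3.06 (SE 0.486, adjusted p = 0.000325 by edgeR), 2.33 (SE 0.526), 2.96 (SE 0.48) and 2.25 (SE 0.516), all called. In each of these comparisons Cdx2 passed the count filter through the mutant alone, where it was high. A fall would have left it untested, and the counts of members that rose there include it. With the other wild-type set the log2 fold changes ran from 2.56 to 3.36 and were also called. Even so Cdx2 stayed below 1 TPM on average in every condition, with a mean of 0.937 TPM in Hp1β Δ/Δ ESCs.

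Of 18995 genes with at least 10 counts in 3 or more of these 27 libraries, 44 had every library without Hp1β above every library with it, which is 0.232%, and 23 had them all below, which is 0.121%. Krt8 (117 to 436 CPM against 18.3 to 99.8 CPM), Krt18 (93.4 to 299 CPM against 14.6 to 79.7 CPM) and Cdx2 were among the 44. Cdx2 met the count requirement through the libraries without Hp1β alone. Libraries of the same genotype are not independent losses of Hp1β. The gap was narrow for Krt8 and Krt18, between the triple mutant and set B. Krt7 came close without separating, with 8.03 to 12.7 CPM against 2.35 to 8.16 CPM. The other 6 members overlapped.

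Tfap2c, which encodes the AP-2γ factor of trophoblast and germ cells and is also expressed in ESCs, followed another order. It was highest in Hp1α/β Δ/Δ ESCs, at 146, 158 and 155 CPM. Hp1γ Δ/Δ (109, 109 and 113 CPM), Hp1α Δ/Δ (99.3, 108 and 107 CPM) and Hp1β Δ/Δ ESCs (73.2, 75.1 and 69.7 CPM) came next. Each of these 4 lay above the next in every library. Set A was the lowest of all conditions, at 33.5, 32 and 31.0 CPM, and set B had 49.2, 49.1 and 52.7 CPM. The log2 fold changes against set A were 2.25 (SE 0.0505, adjusted p = 9.89e-16 by edgeR) in Hp1α/β Δ/Δ, 1.77 in Hp1γ Δ/Δ, 1.70 in Hp1α Δ/Δ and 1.16 in Hp1β Δ/Δ ESCs. Against set B they were 1.6, 1.14, 1.06 and 0.52, the last of these below the fold threshold. Hp1β/γ Δ/Δ ESCs, with 50.9, 51.8 and 48.9 CPM, overlapped set B, with a log2 difference of 0.01 (SE 0.0517, adjusted p = 0.922 by edgeR). In Hp1α/γ Δ/Δ ESCs it was −0.49 against set B and 0.16 against set A, so its sign turned with the control. Without the second mutant library it was −0.50 against set B.

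Eomes, the T-box factor shared by trophoblast stem cells and mesendoderm, had 6.34, 7.64 and 6.35 CPM in set A and 7.85, 9.85 and 9.15 CPM in set B. No single mutant was called against set A, with log2 differences of −0.48, −0.37 and −0.63 for the loss of Hp1α, Hp1β and Hp1γ. Their libraries, at 4.01 to 6.27, 4.83 to 5.63 and 3.14 to 5.09 CPM, all lay below every library of both sets. The gap was as narrow as 6.27 CPM in Hp1α Δ/Δ ESCs against 6.34 CPM in set A, and the share of all genes that did so was not counted. With set B as the control the Hp1γ mutant passed the threshold, at −1.02. Hp1β/γ Δ/Δ (12.8, 12.4 and 11 CPM) and Hp1α/γ Δ/Δ ESCs (10.03, 12 and 11 CPM) had the highest levels, which overlapped each other and lay above every other library, but their differences of 0.43 and 0.25 from set B were not called. Without the second Hp1α/γ Δ/Δ library the latter was 0.23 (adjusted p = 0.138 by edgeR).

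Gata3, a zinc finger factor of trophectoderm, had 11, 26 and 22 counts in set A and 12, 24 and 20 in set B. In none of the 6 single and double mutants was it called, and its log2 differences there ran from −0.99 in Hp1α/β Δ/Δ to 0.54 in Hp1β Δ/Δ ESCs with SE of 0.359 to 0.479. In the Hp1α/γ mutant it was −0.86 without the second library (adjusted p = 0.0957 by edgeR). Elf5, an ETS-family factor of trophoblast stem cells, was not tested in these 6 comparisons, since too few libraries reached the count filter. It had 5, 17 and 16 counts in Hp1α/γ Δ/Δ ESCs against 5, 3 and 2 in set B, where the ranges met at 5. With no filter beyond 1 count it passed the threshold there, with a log2 change of 1.95 (adjusted p = 0.0408 by edgeR). The library with 17 counts was the one that stood apart, and without it the change was 1.63 in that fit and no longer called (adjusted p = 0.0599 by edgeR), a setting chosen after the data were seen.

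Ets2 had 24.9, 25.8 and 24.4 CPM in set A and 25.9, 26.9 and 24.1 CPM in set B, which overlapped. In Hp1α/γ Δ/Δ ESCs it had 12.2, 12 and 11.4 CPM, below every library of set B, and its log2 change was −1.15 (SE 0.109, adjusted p = 0.000261 by edgeR). Without the library that stood apart it was −1.13. In Hp1α Δ/Δ and Hp1γ Δ/Δ ESCs it was −0.61 and −0.93, which did not pass the fold threshold. The Hp1β, Hp1α/β and Hp1β/γ mutants had −0.31, −0.02 and 0.14. Chromosome 16, on which Ets2 lies, had a shift of its own in all Hp1 mutants. The median log2 difference of its other genes was −0.43 over 466 tested genes in Hp1α/γ Δ/Δ, −0.51 in Hp1α Δ/Δ and −0.51 in Hp1γ Δ/Δ ESCs. It was −0.31 in Hp1β Δ/Δ ESCs, where Ets2 itself was also −0.31. In the Hp1α/β and Hp1β/γ mutants it was −0.43 and −0.45, while Ets2 itself was close to its control. Over the genes of the other chromosomes pooled, the median lay within 0.05 of 0. The part of this shift in the Ets2 values was not tested.

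Cyp11a1 was low in the Hp1 series, and its counts limited every comparison. It had 22, 10 and 20 counts in set A and 21, 12 and 20 in set B. The Hp1α single mutant had 10, 5 and 3 counts, a log2 change of −1.55 (SE 0.526, adjusted p = 0.0211 by edgeR). The call was lost without mutant library 2 or 3 or library 1 or 3 of set A, with adjusted p of 0.0814, 0.1, 0.0995 and 0.087 by edgeR. In Hp1α/γ Δ/Δ ESCs it had 5, 7 and 10 counts, a log2 change of −1.2 (SE 0.405, adjusted p = 0.0439 by edgeR), a call lost without library 1 or 3 of either group, with adjusted p from 0.0571 to 0.146. The call was also lost with DESeq2 (adjusted p = 0.0819), and by edgeR with no filter beyond 1 count (adjusted p = 0.0755), with the replicate number as a block (adjusted p = 0.0864) and against set A (adjusted p = 0.062). Without the second Hp1α/γ Δ/Δ library it was −1.2 (adjusted p = 0.0425 by edgeR). Hp1γ Δ/Δ and Hp1α/β Δ/Δ ESCs had log2 differences of −1.15 and −1.18 with adjusted p of 0.0564 and 0.0769 by edgeR, and against set B the Hp1γ mutant was called (adjusted p = 0.032 by edgeR). The Hp1β and Hp1β/γ mutants, with 29, 22 and 26 and 28, 29 and 30 counts, had 0.60 and 0.56 and were not called.

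In the triple mutant 5 of 10 members rose and 1 fell against set A. Here 25.1% of all genes were called higher, 17.1% lower and 42.3% either way, beside 6 of 10 members. Gata3 had 51, 51 and 66 counts, or 2.19, 2.42 and 2.55 CPM, against 0.509, 1.2 and 1.07 CPM. It was above every library of every other condition, and its log2 change was 1.40 (SE 0.321, adjusted p = 0.000587 by edgeR). Elf5 had 15, 15 and 16 counts against 4, 6 and 2, a log2 change of 1.81 (SE 0.517, adjusted p = 0.00355 by edgeR). It passed the count filter through the triple mutant alone, where it was high, and a fall would have left it untested. Krt8 had 126, 121 and 117 CPM and Krt18 95, 93.4 and 94.2 CPM, and they rose by 1.12 and 1.15 on the log2 scale. Against set B, whose keratin levels were higher, the differences of 0.37 for Krt8 and 0.35 for Krt18 did not pass the fold threshold, although every triple mutant library was above every library of set B.

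Eomes was the member that fell in the triple mutant. It had 3.95, 2.33 and 3.33 CPM against 6.34, 7.64 and 6.35 CPM in set A, a log2 change of −1.04 (SE 0.189, adjusted p = 5.5e-05 by edgeR). That size is at the edge of the threshold: without the second triple mutant library it was −0.88 and without the second library of set A −0.96. With at least 10 counts required in every library it was −0.94 and not called (adjusted p = 6.62e-05 by edgeR). With set B as the control it was −1.43. Tfap2c (0.76), Krt7 (0.82), Ets2 (−0.88) and Cyp11a1 (0.57) were not called. For Ets2, the other genes of chromosome 16 had a median of −0.30 in the same comparison.

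Set against Hp1α/β Δ/Δ ESCs, the nearest genotype with libraries, the triple mutant differed in 5 members, 3 higher and 2 lower, where 25.4% of all genes were called higher, 16.0% lower and 41.4% either way. Gata3 was 2.19, 2.42 and 2.55 CPM against 0.618, 0.539 and 0.235 CPM, a log2 change of 2.38 (SE 0.354, adjusted p = 1.36e-05 by edgeR). Cyp11a1 was higher by 1.74, with 26, 26 and 31 counts against 11, 9 and 3. Elf5 was higher by 1.16 (adjusted p = 0.0271 by edgeR), a call lost in 5 of 6 fits without a single library, with adjusted p from 0.059 to 0.13, and kept without the first Hp1α/β Δ/Δ library. It was also lost with DESeq2 (adjusted p = 0.0863), and by edgeR with the replicate block (adjusted p = 0.0721) and with no filter beyond 1 count (adjusted p = 0.102). Here too Elf5 passed the count filter through the triple mutant alone. Tfap2c fell by 1.5 on the log2 scale, from 153 to 53.3 CPM, and Eomes by 1.34, from 8.24 to 3.2 CPM. Krt8 was 121 against 236 CPM and Krt18 94.2 against 167 CPM, with log2 differences of −0.94 (SE 0.037) and −0.80 (SE 0.0387) that lay just inside the fold threshold. Cdx2 did not differ beyond its error, at −0.08 (SE 0.363).

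Setdb1 F/F ESCs had another starting pattern of the members than either wild-type set. Ets2 had 54.5, 55.7 and 57.7 CPM and Cyp11a1 4.15, 4.91 and 3.96 CPM, the highest of all conditions. Krt18 had 5.50, 5.48 and 4.96 CPM and Krt7 1.40, 1.07 and 1.24 CPM, both below every library of the Hp1 series. Gata3 had 1, 0 and 0 counts and Elf5 0, 1 and 0. The levels are set side by side without a test, since the Setdb1 lines share no control with the Hp1 series.

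In Setdb1 Δ/Δ cells 4 of 7 members tested fell against Setdb1 F/F ESCs and none rose, where 11.4% of all genes were called lower, 18.5% higher and 29.9% either way. Krt8 had 4.12, 4.03 and 3.44 CPM against 32.4, 32 and 32.9 CPM, a log2 change of −3.05 (SE 0.0827, adjusted p = 7.05e-16 by edgeR). Eomes had 0.753, 0.995 and 0.519 CPM against 6.85, 7.62 and 6.73 CPM, a log2 change of −3.2 (SE 0.206, adjusted p = 1.53e-10 by edgeR). Ets2 had 18.6, 18.9 and 18.9 CPM, a log2 change of −1.56 (SE 0.0503). Here the other genes of chromosome 16 had a median of 0.03. Krt7 fell from 28, 19 and 21 to 6, 7 and 8 counts, by 1.84 on the log2 scale. Tfap2c (−0.19) and Cyp11a1 (−0.47) were not called. The feeder fibroblast markers summed to 4.67 to 6.03 CPM against 10.2 to 11.5 CPM, 2 of 3 tested fell, and their part in these falls was not tested.

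Krt18 went the other way from Krt8. It had 7.73, 8.20 and 5.66 CPM in Setdb1 Δ/Δ cells against 5.50, 5.48 and 4.96 CPM in Setdb1 F/F ESCs, a log2 difference of 0.45 (SE 0.145, adjusted p = 0.00931 by edgeR) that did not pass the fold threshold. Per length, by the authors' TPM, the ratio of Krt8 to Krt18 stayed between 0.76 and 1.06 in all 27 libraries of the Hp1 series, through levels that spanned 2 wild-type sets and 7 mutants. It was 4.22 ± 0.301 (SD, n = 3) in Setdb1 F/F ESCs and 0.375 ± 0.0405 (SD, n = 3) in Setdb1 Δ/Δ cells.

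**Figure D3:**
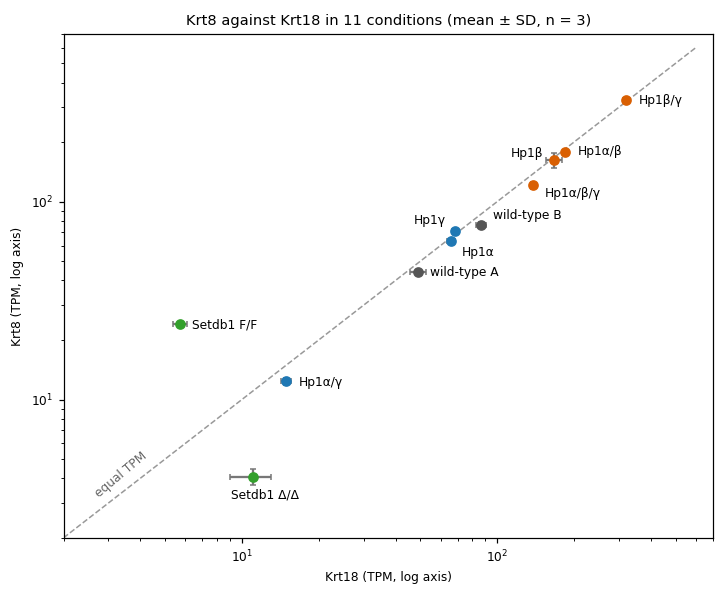
Krt8 against Krt18 as the authors' TPM on log axes, 1 point for each of the 11 conditions with SD over 3 libraries, and a dashed line where both are equal. The 9 conditions of the Hp1 series lie along the line, Setdb1 F/F above it at 4.22 times as much Krt8 as Krt18, and Setdb1 Δ/Δ below it at 0.375 times.

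Cdx2 and Gata3 were too low for the count filter in the Setdb1 lines. Cdx2 had 12, 13 and 9 counts in Setdb1 Δ/Δ cells against 3, 0 and 1 in Setdb1 F/F ESCs, with no overlap. With no filter beyond 1 count it passed the threshold, with a log2 change of 2.79 (adjusted p = 0.000366 by edgeR). Gata3 had 1, 4 and 3 counts against 1, 0 and 0 and did not pass it in that fit (adjusted p = 0.155 by edgeR). Elf5 had 1 count in each group.

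The effects of losing the 3 Hp1 paralogs and of losing Setdb1 share no library and were compared by a test of their difference over 12 libraries. The effect in the triple mutant was the higher for 4 of 10 members and the lower for none, where 15.4% of all genes differed in the former direction, 16.5% in the latter and 31.9% either way. For Krt8 the difference of log2 fold changes was 4.14 (SE 0.0858, adjusted p = 4.94e-21 by edgeR), since it rose by 1.12 in one and fell by 3.05 in the other. For Krt7 it was 2.64 (SE 0.349), for Eomes, which fell in both, 2.14 (SE 0.307), and for Cyp11a1 1.02 (SE 0.357, adjusted p = 0.0161 by edgeR). Krt18 (0.68), Ets2 (0.65) and Tfap2c (0.92) did not pass the fold threshold. For Elf5, Gata3 and Cdx2 the SE of 0.908 to 2.19 left the difference undetermined at this depth.

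**Figure D4:**
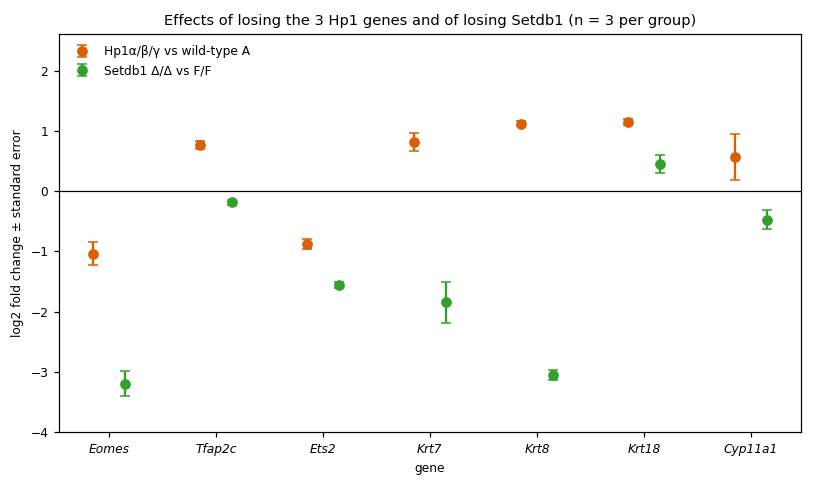
Log2 fold change with its standard error (bars) for the 7 genes tested in both, in the Hp1α/β/γ triple mutant against wild-type set A (orange) and in Setdb1 Δ/Δ cells against Setdb1 F/F ESCs (green), n = 3 libraries per group. Krt8 is at 1.12 and −3.05, the widest gap, while Krt18 lies above 0 in both and Eomes and Ets2 below 0 in both.

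Many differences were smaller than the fold threshold. On the adjusted p alone, 7 of 8 members tested differed in Hp1α Δ/Δ ESCs (45.0% of all genes), 6 of 9 after loss of Hp1β (51.1%), 6 of 8 after loss of Hp1γ (46.7%), 5 of 9 in the Hp1α/β mutant (43.4%), 6 of 8 in the Hp1α/γ mutant (46.5%) and 5 of 9 in the Hp1β/γ mutant (51.7%). It was 9 of 10 in the triple mutant (81.6%), 7 of 7 in Setdb1 Δ/Δ cells (78.9%), 9 of 10 for the triple mutant against the Hp1α/β mutant (80.6%) and 7 of 10 for the difference of effects (64.9%).

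Other genes of the lineage were read from lists, whose counts stand beside the shares of all genes called. These were 1.56% higher and 3.31% lower for Hp1α, 2.75% and 6.36% for Hp1β, 2.04% and 3.55% for Hp1γ, 2.96% and 5.19% for Hp1α/β, 6.75% and 16.3% for Hp1α/γ and 7.32% and 4.54% for Hp1β/γ. For the triple mutant against set A they were 25.1% higher and 17.1% lower, and for Setdb1 Δ/Δ cells 18.5% and 11.4%. A listed gene too low for the count filter in the control entered a test only where the mutant was higher. Such a gene could be counted as a rise and never as a fall. Of 15 further early trophectoderm and trophoblast stem cell genes, 2 of which, Esrrb and Sox2, also serve as pluripotency factors, 6 of 14 tested rose and none fell in Hp1β Δ/Δ ESCs. The median log2 change was 0.66, beside −0.03 for all genes. In Hp1α/γ Δ/Δ ESCs, which keep Hp1β, it was 0.69 (0.76 without the second library), beside −0.02 for all genes. In Hp1β/γ Δ/Δ ESCs it was −0.23, beside 0.005. The Hp1α, Hp1γ, Hp1α/β and triple mutants had 0.28, 0.28, 0.58 and 0.13. In Hp1β Δ/Δ ESCs Bmp4, a signal that favours trophoblast fate in culture, rose by 1.89 on the log2 scale and Sox21 by 2.49. Sox21 was also called in Hp1α, Hp1γ and Hp1α/β mutants against set A (2.02, 2.42 and 2.26), in the Hp1α/γ mutant against set B (1.56) and in the triple mutant (2.80). In Hp1α/β Δ/Δ ESCs 4 of 13 tested rose, with Gata2 at 1.34, and in Hp1β/γ Δ/Δ ESCs 2 of 14 rose and 1 fell, with Gata2 at 1.68. In Hp1α/γ Δ/Δ ESCs 2 rose and 2 fell of 15, with Bmp4 at 3.07 and Fgfr2, the receptor for the FGF signal that trophoblast stem cells need, at −4.0. Without the second library 3 rose and 2 fell, with Bmp4 at 3.03, Sox21 at 1.70 and Fgfr2 at −3.99. In the triple mutant 6 rose and 3 fell of 15, beside the 25.1% and 17.1% of all genes, and Msx2 rose by 2.56. In Setdb1 Δ/Δ cells 2 rose and 4 fell of 14, with Klf5 at −2.23 and Tead4, the factor that acts upstream of Cdx2 in trophectoderm, at −2.05.

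Of 18 genes of differentiated trophoblast, at most 11 passed the count filter in any comparison. The placental lactogen gene Prl3b1 had no count in any library, and Prl3d1, Tpbpa and Hsd3b6 had 1, 1 and 5 counts in all libraries together. In Hp1β/γ Δ/Δ ESCs 5 of 11 tested rose and 2 fell, with Hand1, a factor of giant cell differentiation, at 19.7 against 5.49 CPM and a log2 change of 1.84. The 2 that fell were Ascl2 and Star, each by 1.27. In Hp1β Δ/Δ ESCs 2 rose and 1 fell of 10 tested, with a median of 0.195. In Hp1α/β Δ/Δ ESCs 2 rose and 1 fell of 8, with a median of −0.28. Syna fell in both, by 1.66 and 1.33. In the Hp1α and Hp1γ single mutants 1 of 8 and 1 of 9 fell and none rose. Hand1 also rose in Hp1β Δ/Δ (2.30) and Hp1α/β Δ/Δ ESCs (1.71), and fell by 1.88 in the Hp1α/γ mutant. Of 9 genes tested in that mutant 6 fell and none rose, with a median of −1.23 beside −0.02 for all genes. Without the second library 5 of 9 fell, with Hand1 at −1.80 and a median of −1.39. In the triple mutant 5 of 9 tested rose and 2 fell, where 25.1% of all genes rose and 17.1% fell, and Gcm1, the syncytiotrophoblast factor, rose from 0.365 to 9.25 CPM, a log2 change of 4.70 (SE 0.295, adjusted p = 2.13e-11 by edgeR). Syna, which encodes the fusion protein syncytin A, rose by 2.16 there, while Peg10 fell by 2.44. Against Hp1α/β Δ/Δ ESCs the triple mutant was higher by 4.19 for Gcm1 and 3.48 for Syna.

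A list of 13 other simple epithelium genes and keratins was counted in the same way. Of these, 2 of 11 tested rose and none fell in Hp1β Δ/Δ ESCs, and 2 rose and 2 fell of 12 in Hp1α/β Δ/Δ ESCs. Dsp, the desmosome protein desmoplakin, rose by 1.30 and 2.22 in these. Krt17 fell by 1.39 in Hp1α/β Δ/Δ, by 1.91 in Hp1β/γ Δ/Δ ESCs and by 3.39 in the triple mutant, opposite to Krt8. In Hp1α/γ Δ/Δ ESCs 3 of 12 fell and none rose, Krt80 at −2.93, Krt20 at −2.39 and Krt19 at −1.19, where 16.3% of all genes were called lower, and the median was −0.25 beside −0.02. Without the second library these 3 fell as well, by 3.53, 2.42 and 1.48. In the Hp1β/γ mutant 1 rose and 1 fell of 12, in the triple mutant 3 rose and 3 fell of 12 (25.1% and 17.1% of all genes), and in the Hp1α and Hp1γ single mutants 1 of 12 fell in each. In Setdb1 Δ/Δ cells 6 of 9 tested fell, where 11.4% of all genes were called lower, with Cldn4 at −3.47, Krt17 at −3.28 and Krt19 at −2.38, and Krt20 rose by 4.73. The median there was −1.80, beside 0.02 for all genes.

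Markers of other early lineages were counted beside the same shares of all genes. Of 10 primitive endoderm markers, 5 of 8 tested rose and 2 fell in the triple mutant (25.1% and 17.1% of all genes), with Gata4, a factor of that lineage, at 9.04 against 0.801 CPM in set A, and 1 rose and 6 fell of 10 in Setdb1 Δ/Δ cells (18.5% and 11.4%). In the Hp1α, Hp1β and Hp1γ single mutants 0, 1 and 1 of 6 rose and none fell, in the Hp1α/β and Hp1α/γ mutants 1 rose and 2 fell of 6, and in the Hp1β/γ mutant 1 of 6 fell. Of the primitive streak and mesendoderm markers, the group whose tissue also expresses Eomes, 4 of 5 tested rose in the Hp1α/β mutant and 5 of 5 in the Hp1β/γ mutant, with Fgf8 higher by 2.02 and 2.62 on the log2 scale. Some of these were too low for the count filter in wild-type and were tested because the mutant was higher. Among them were Gsc in the Hp1α/β mutant (1.18 against 0.281 CPM) and Evx1 in the Hp1β/γ mutant (0.711 against 0.0317 CPM). In Hp1β Δ/Δ ESCs 2 of 5 rose, in the Hp1α/γ mutant 2 rose and 2 fell of 5, in the triple mutant 2 rose and 1 fell of 4, and none was called in the Hp1α and Hp1γ single mutants (3 tested) or in Setdb1 Δ/Δ cells (1 tested). Of the primordial germ cell genes, a group that shares Tfap2c as a known factor, none of 6 was called in any single mutant. In the Hp1α/β mutant 1 rose and 1 fell of 6, in the Hp1α/γ mutant 3 rose and 1 fell of 7, in the Hp1β/γ mutant 1 of 6 rose, in the triple mutant 3 rose and 2 fell of 6, and in Setdb1 Δ/Δ cells 3 rose and 1 fell of 7, with Dazl, an RNA-binding protein of germ cells, at 1091 against 11.6 CPM. Without the second Hp1α/γ Δ/Δ library 1 rose and 2 fell of 7 primitive endoderm markers, 2 rose and 3 fell of 6 primitive streak markers and 3 of 7 germ cell genes rose with none lower. Of the pluripotency factors, Sox2 (−1.59), Nanog (−1.5) and Pou5f1 (−1.09) fell and Tbx3 (1.06) rose in the triple mutant.

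**Figure D5:**
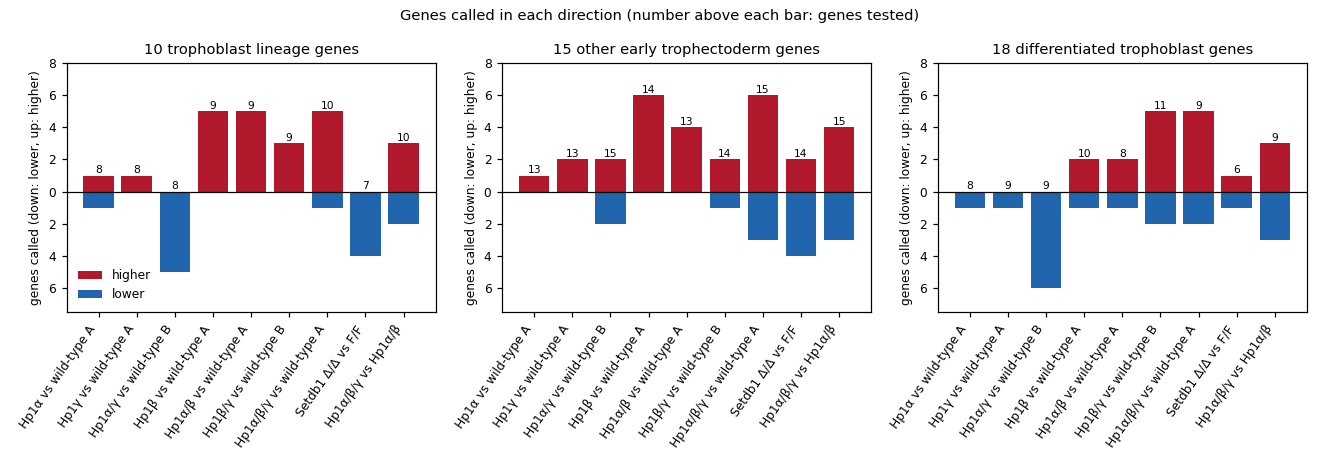
Number of genes called higher (red, up) and lower (blue, down) in 9 comparisons for the 10 trophoblast lineage genes, 15 other early trophectoderm genes and 18 differentiated trophoblast genes, with the number tested above each bar. In Hp1α/γ, 5 of 8 and 6 of 9 genes of the left and right lists were lower and none higher, where 16.3% of all genes were called lower and 6.75% higher. In the middle list 2 of 15 were higher and 2 lower.

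For the 5 members with at least 10 counts in every library, the genes most alike over the 11 conditions were sought among 12376 genes by Pearson's r of mean log2 CPM. Conditions share wild-type sets and tables, so r is a description. Krt8 was most like Egfr (r = 0.977), Padi3 (0.957) and Lsr (0.937), and Krt18 most like Slc5a5 (0.970), Anxa3 (0.966) and Tmcc3 (0.959). The r between Krt8 and Krt18 was 0.913, below these values. Eomes was most like Pfkfb1 (0.951), Rhoc (0.949) and Lad1 (0.947), Ets2 most like Fxyd6 (0.940), Celsr1 (0.939) and Cntn2 (0.927), and Tfap2c most like Lrrc15 (0.803), Homer3 (0.803) and Wdr62 (0.798). Among the members themselves Eomes and Krt8 gave 0.596, Tfap2c and Krt8 0.327, and Ets2 and Krt18 −0.185.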

How the data were processed

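The authors deposited 8 tables, 1 for each mutant with its control, holding expected (estimated) counts and TPM per gene. The submitters' processing notes list TopHat2 2.1.1, RSEM and edgeR with build GRCm38.p5, without the role of each, and the annotation release is not given in the sources used here. The deposited expected counts are not normalized, and 87.1% were whole numbers. TPM were scaled by the authors for gene length and library size and were used as deposited to compare levels between genes. The labels name a TruSeq RNA kit and the study's methods a stranded total RNA kit. The authors' group means of TPM (16 columns), fold changes and p-values were not used.

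Counts were rounded and fitted with edgeR 4.0.16 under R 4.3.3 on the libraries of each comparison (filterByExpr with a minimum count of 10, TMM, quasi-likelihood test). A call needed a Benjamini-Hochberg adjusted p below 0.05 over all genes tested together with a log2 fold change beyond 1 in size. The standard error (SE) is the size of the log2 fold change divided by the square root of the F statistic. CPM came from TMM scaling of all 33 libraries together. The difference of effects was tested over 12 libraries. Fits were tested on simulated data with 200 changed genes. Members and lists were chosen with earlier results of these data known. Named were all 10 members, the targeted genes, from each other list at most the 3 largest rises and falls among called genes, and the 3 genes most alike (r of log2(CPM + 0.5)). Neighbours of Krt8 and Krt18 and genes at 0 were named after their values were seen. Ensembl identifiers were looked up in GENCODE M21 (GRCm38), which held 55141 of the 55487. No pair of libraries agreed within sampling noise. Alternatives were RLE size factors, DESeq2 1.42.0 (not run for the difference of effects), other count filters, no fold threshold, the replicate number as a block, the wild-type set not in the deposited table, Hp1α Δ/Δ ESCs as a control (chosen after seeing the data) and each library left out in turn. List counts, and the fit with no filter, were also made without the second Hp1α/γ Δ/Δ library, which was chosen after seeing the data. Depth was 17330936 to 25743149 counts per library, and intervals and floors cover counting error only.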

Additional observations from a re-analysis of the deposited data

Results flagged for a closer look

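The effect of losing the 3 Hp1 paralogs, taken against wild-type set A, differed from the effect of losing Setdb1, taken against Setdb1 F/F ESCs, for 4 members by the test of the difference over 12 libraries. For Krt8 the difference of log2 fold changes was 4.14, with 3 of 3 triple mutant libraries above and 3 of 3 Setdb1 Δ/Δ libraries below all of their controls. For Krt7 it was 2.64 and for Eomes 2.14. For Cyp11a1 it was 1.02, and its call was lost without library 2 of set A, where the difference was 0.72 (adjusted p = 0.0646 by edgeR). Without library 2 of Setdb1 F/F ESCs (0.91, adjusted p = 0.0455) or of Setdb1 Δ/Δ cells (0.99, adjusted p = 0.0304) it fell below the fold threshold.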

How the results depend on the processing

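Of 40 called results of single members, 520 values were recomputed under the alternatives. In 486 the call and its direction held, in 34 the direction held and the call was lost, and in none did the direction turn. The 520 include the setting without the fold threshold, under which a call cannot be lost. Called members left untested by the filter of at least 10 counts in every library are not among the 520. With RLE size factors the number of called members was that of the results given in every comparison. DESeq2, run for the 9 comparisons of 2 groups, gave 1 fewer in the Hp1α/γ mutant and in the triple mutant against the Hp1α/β mutant. With no filter beyond 1 count the median log2 change of all genes moved from 0.035 to 0.409 in the triple mutant, from 0.034 to 0.412 against the Hp1α/β mutant, from 0.015 to 0.198 in Setdb1 Δ/Δ cells and from −0.016 to 0.114 for the difference of effects.

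With at least 10 counts in every library, 1 member was called in Hp1α Δ/Δ ESCs in place of 2, 3 in the triple mutant in place of 6 and 2 in the triple mutant against the Hp1α/β mutant in place of 5. Without the fold threshold the counts were 7 in Hp1α Δ/Δ, 6 in Hp1γ Δ/Δ, 5 in Hp1β/γ Δ/Δ ESCs, 7 in Setdb1 Δ/Δ cells, 9 for the triple mutant against the Hp1α/β mutant and 7 for the difference of effects, where 45.0% to 80.6% of all genes passed. With the other wild-type set, 3 were called in Hp1β Δ/Δ ESCs in place of 5, 3 in Hp1γ Δ/Δ in place of 1 and 3 in the Hp1α/γ mutant in place of 5. With Hp1α Δ/Δ ESCs as the control of the Hp1α/β mutant, 3 were called in place of 5. The cause was not tested.

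Leaving out single libraries gave 1 to 2 called members in Hp1α Δ/Δ, 1 to 2 in Hp1γ Δ/Δ, 4 to 5 in Hp1α/γ Δ/Δ ESCs, 5 to 6 in the triple mutant, 4 to 5 in Setdb1 Δ/Δ cells, 4 to 5 in the triple mutant against the Hp1α/β mutant and 3 to 4 for the difference of effects, and no change in the other 3 comparisons (5, 5 and 3).

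Signs turned only for members that were not called. With the other wild-type set, Krt8 was −0.197 in Hp1α Δ/Δ and −0.046 in Hp1γ Δ/Δ ESCs, Krt18 −0.333 and −0.294, Eomes −0.117 in the Hp1α/β mutant and Tfap2c 0.161 in the Hp1α/γ mutant. Ets2 was 0.591 in the Hp1α/β mutant against Hp1α Δ/Δ ESCs. When single libraries were left out, Tfap2c ran from −0.012 to 0.041 and Gata3 from −0.532 to 0.006 in the Hp1β/γ mutant, and the difference of effects for Elf5 from −0.122 to 3.82. Cdx2 in the triple mutant against the Hp1α/β mutant was 0.034 under the stricter filter.

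Libraries of equal number paired weakly at most: correlations of their deviations from group means ran from −0.074 to 0.17, and in no comparison did all 3 pairs exceed 0.1. They were highest in the Hp1β/γ mutant, at 0.17, 0.113 and 0.027. All 3 mutant libraries correlated best with the control of their own number only in the comparison of Hp1β Δ/Δ ESCs. A replicate block moved the number of called members to 4 in the Hp1α/γ mutant and to 4 in the triple mutant against the Hp1α/β mutant, and in the other 8 it was as without the block.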
